A study of Bos taurus with 50 samples.

Results

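BCL2 (ENSBTAG00000019302), TNFRSF1A (ENSBTAG00000004211) and TNFRSF25 (ENSBTAG00000006519) are 3 regulators of apoptosis whose mRNA was followed in the endometrium of postpartum dairy cows. They were picked by their Ensembl identifiers from the 18830 genes of the deposited count table, and all 3 were among the 16120 genes that passed the filter on low counts. The study asked how ovarian cyclicity and the uterine bacteria relate to the endometrial transcriptome after calving. Endometrium of first-lactation cows of mixed Holstein and Jersey breeding, kept on one farm, was biopsied at weeks 5 and 9 after calving, and 50 stranded mRNA libraries were sequenced. CycW5 cows had a corpus luteum (CL) and circulating progesterone (P4) at week 5 (10 libraries at week 5 and 10 at week 9). NoCycW5 cows had follicles but neither a CL nor detectable P4 up to week 5 (12 and 11 libraries).

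A smaller group, called CycNoP4 here, held cows that had cycled but had low P4 at week 5, with no CL or with a CL that held a large lacuna (4 and 3 libraries). Before week 9, every cow received GnRH, a P4-releasing insert and PGF2α, so that the week 9 biopsy fell on the same luteal-phase day in all groups, and the effect of weeks after calving cannot be told apart from that of the treatment. A biopsy was taken from the uterine horn on the side of the CL or, without one, of the largest follicle. Each library goes by its label number, which does not link it to a cow, so weeks were compared as unpaired groups and p-values measure the spread between libraries. Total reads counted on genes ran from 21592867 to 32813237 per library (median 28126022.5), and no pair of the 50 libraries looked like a repeat, with a mean chi-square per gene of at least 27.9. The running index in the library labels was 1 to 26 for week 5 and 27 to 50 for week 9, so anything that followed that order cannot be told apart from the week.

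Apoptosis is started along a mitochondrial and a receptor route. BCL2 sits on the mitochondrial membrane and holds back the pore-forming members of its family, so it protects cells from the mitochondrial route. TNFRSF1A is the main receptor for tumor necrosis factor and TNFRSF25 is a receptor for the ligand TL1A. Both carry a death domain in the cell, through which they can recruit either the caspase machinery or inflammatory and survival signaling, and TNFRSF25 is best known from T cells. The endometrium is made up of epithelium, stroma and vessels, and P4 is known to restrain cell death in it. A biopsy is a mixture of these cells, so fewer cells of a type and less RNA per cell cannot be told apart.

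The level of BCL2 was low and rested on 30 to 185 reads per library. Levels are given in CPM, the reads of a gene scaled to a common total of reads counted on genes, with libraries normalized by the trimmed mean of M-values (TMM). BCL2 in NoCycW5 cows at week 5 was 1.03 CPM in the lowest library, 2.56 in the median and 5.47 in the highest (mean 2.63 ± 1.11 SD, n = 12). In CycW5 cows at week 5, BCL2 was 2.46, 3.98 and 6.86 CPM (mean 4.09 ± 1.26 SD, n = 10). The groups overlapped, but 9 of the 10 CycW5 libraries were above the NoCycW5 median. The NoCycW5 library 44 stood well above its group with 5.47 CPM, and the CycW5 library 45 held the highest level of the 50 libraries.

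At week 9, BCL2 in NoCycW5 cows was 2.29, 3.52 and 4.59 CPM (mean 3.49 ± 0.707 SD, n = 11). In CycW5 cows at week 9 the lowest, median and highest libraries had 1.17, 2.75 and 5.27 CPM (mean 3.17 ± 1.51 SD, n = 10). The CycW5 libraries at week 9 were the more scattered, with 2 libraries (87 and 89) near 1.2 CPM. In CycNoP4 cows at week 5, BCL2 was 2.55, 1.78, 3.59 and 2.70 CPM in libraries 51, 56, 58 and 64 (mean 2.65 ± 0.741 SD, n = 4). At week 9 it was 4.33, 5.25 and 3.94 CPM in libraries 79, 88 and 94 (mean 4.51 ± 0.671 SD, n = 3). Every CycNoP4 library at week 9 lay above every CycNoP4 library at week 5. How many of all genes separated in this way was not counted, so nothing is read from it.

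TNFRSF1A was read from 2680 to 8535 reads per library, so counting error was small beside the spread between libraries. In NoCycW5 cows at week 5, TNFRSF1A was 137, 164 and 209 CPM in the lowest, median and highest library (mean 170 ± 23.6 SD, n = 12). In CycW5 cows at week 5 it was 115, 134 and 159 CPM (mean 136 ± 14.6 SD, n = 10). The ranges overlapped, but 10 of the 10 CycW5 libraries were below the NoCycW5 median and 5 were below the lowest NoCycW5 library.

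At week 9, TNFRSF1A was 120, 154 and 197 CPM in NoCycW5 cows (mean 153 ± 18.6 SD, n = 11) and 111, 145 and 224 CPM in CycW5 cows (mean 151 ± 33.7 SD, n = 10). The week 9 ranges overlapped, and the CycW5 libraries were the more scattered of the groups. In CycNoP4 cows at week 5, TNFRSF1A was 324 CPM in library 51 and 135, 130 and 142 CPM in libraries 56, 58 and 64 (mean 183 ± 94.5 SD, n = 4). The level in library 51 was the highest of the 50 libraries, whereas the other 3 libraries lay in the range of the CycW5 cows. At week 9 the CycNoP4 libraries 79, 88 and 94 had 140, 146 and 139 CPM (mean 142 ± 4.11 SD, n = 3).

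TNFRSF25 was read from 173 to 739 reads per library. In NoCycW5 cows at week 5 it was 10.7, 20.1 and 29.4 CPM in the lowest, median and highest library (mean 20.02 ± 5.18 SD, n = 12). In CycW5 cows at week 5 it was 8.84, 13.7 and 16.7 CPM (mean 13.1 ± 2.86 SD, n = 10). No CycW5 library reached the NoCycW5 median, and 3 of the 10 were below the lowest NoCycW5 library.

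At week 9, TNFRSF25 was 6.46, 14.6 and 18.3 CPM in NoCycW5 cows (mean 14.0 ± 3.62 SD, n = 11) and 7.995, 12.2 and 26.4 CPM in CycW5 cows (mean 14.2 ± 5.67 SD, n = 10). All 11 NoCycW5 libraries at week 9 were below the week 5 median of NoCycW5 cows. In CycNoP4 cows at week 5, TNFRSF25 was 9.04, 11.4, 11.1 and 20.9 CPM in libraries 51, 56, 58 and 64 (mean 13.1 ± 5.32 SD, n = 4). Only library 64 of these 4 was as high as the NoCycW5 median of week 5. At week 9 the CycNoP4 libraries 79, 88 and 94 had 10.5, 16.8 and 18.4 CPM (mean 15.2 ± 4.18 SD, n = 3).

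**Figure D1:**
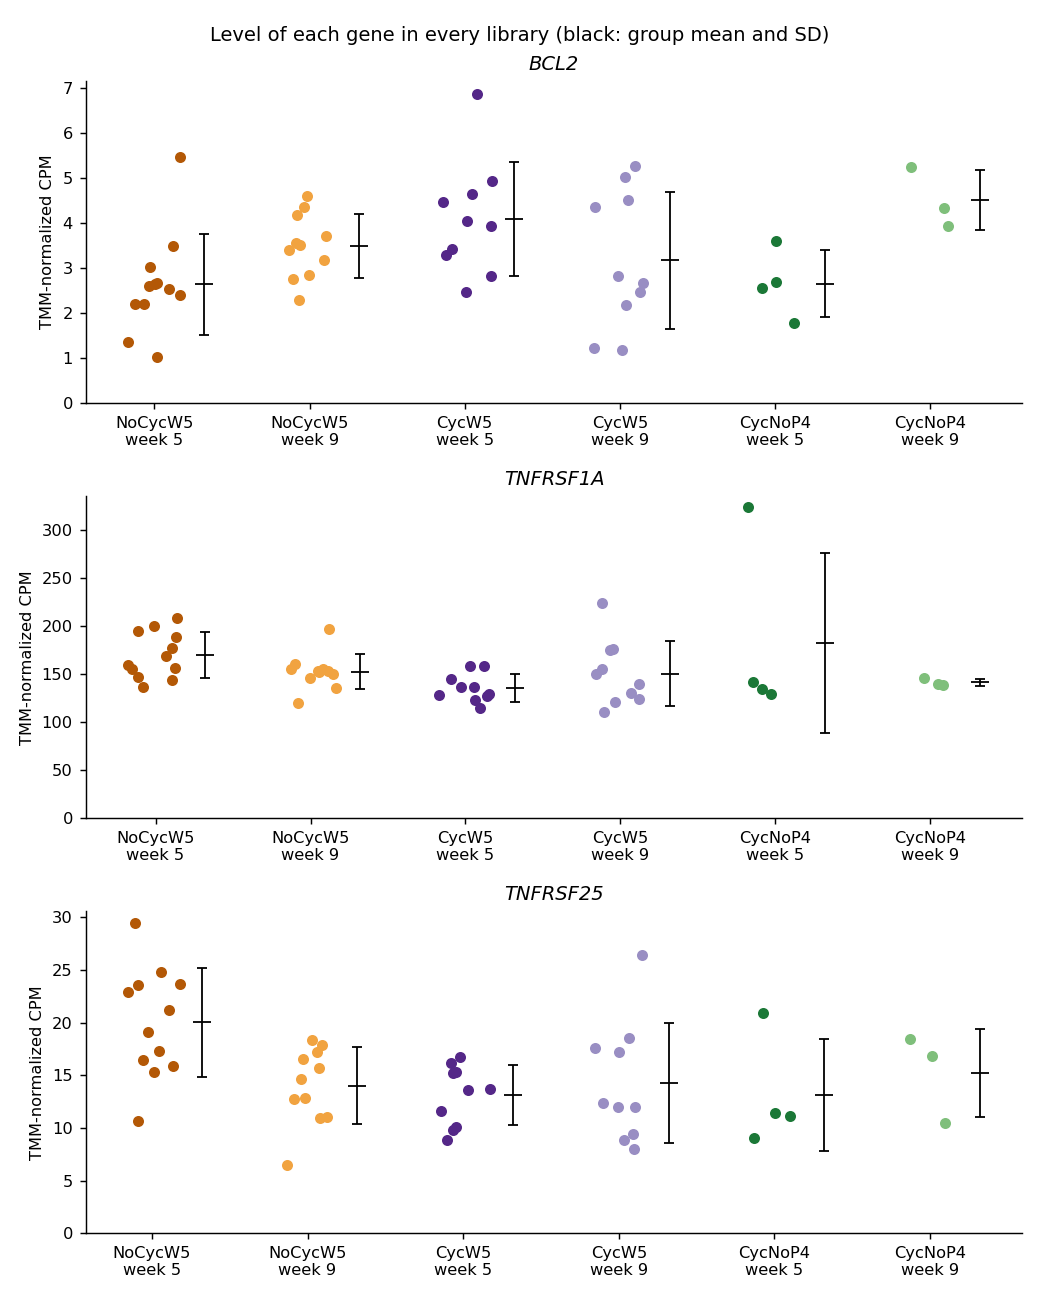
Level of BCL2, TNFRSF1A and TNFRSF25 (TMM-normalized CPM, vertical axes starting at 0) in each of the 50 libraries, by cyclicity group and week. Each point is a library, and the black marks give the group mean and SD. TNFRSF25 is highest in NoCycW5 cows at week 5 (mean 20.02 CPM), and a single CycNoP4 library at week 5 holds 324 CPM of TNFRSF1A.

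The order of the group means differed between the genes. BCL2 fell from CycNoP4 at week 9 (4.51 CPM) through CycW5 at week 5 (4.09), NoCycW5 at week 9 (3.49), CycW5 at week 9 (3.17) and CycNoP4 at week 5 (2.65) to NoCycW5 at week 5 (2.63), and no pair of neighbours in that order differed by more than the smaller of their SDs. TNFRSF1A ran from CycNoP4 at week 5 (183 CPM, set by library 51) and NoCycW5 at week 5 (170) through NoCycW5 (153), CycW5 (151) and CycNoP4 (142) at week 9 to CycW5 at week 5 (136). Neighbours differed there by more than the smaller SD only around the CycNoP4 libraries of week 9, whose SD was 4.11 CPM. For TNFRSF25 the NoCycW5 mean at week 5 (20.02 CPM) was 4.797 CPM above the next group, more than the smaller SD of 4.18, and the other 5 means lay between 13.1 and 15.2 CPM and differed from their neighbours by less than the smaller SD.

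CycW5 and NoCycW5 cows at week 5 were compared to learn how the cyclic endometrium under P4 differed from that of cows that had not yet cycled. BCL2 mRNA was greater and both receptor mRNAs were lesser in CycW5 cows. BCL2 was 1.55-fold higher in CycW5 cows (log2 fold change 0.63, SE 0.22, 95% interval 0.18 to 1.08, BH P = 0.0328). TNFRSF1A was 1.25-fold lower (log2 fold change -0.32, SE 0.11, interval -0.55 to -0.09, BH P = 0.0337). TNFRSF25 was 1.53-fold lower (log2 fold change -0.61, SE 0.19, interval -0.98 to -0.24, BH P = 0.0127). Tests were edgeR quasi-likelihood tests in one fit of the 50 libraries, with Benjamini-Hochberg (BH) adjustment over the 16120 genes and a threshold of 0.05. In this comparison 25.6% of the genes tested passed, so a pass alone did not set these genes apart. The study had listed the same genes from cows that are part of these libraries, so their directions here are not independent evidence.

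The week 5 calls differed in how firmly they stood when a library was left out. TNFRSF25 passed in 22 of 22 fits that each lacked 1 library of the compared groups (BH P 0.00543 to 0.0303). BCL2 passed in 17 of the 22, and lost the call without the NoCycW5 library 63 (log2 fold change 0.55, BH P = 0.0578) or 65 (0.57, BH P = 0.0577), or without the CycW5 library 12 (0.60, BH P = 0.0593), 45 (0.52, BH P = 0.0879) or 70 (0.61, BH P = 0.0524). TNFRSF1A passed in 15 of the 22. It lost the call without the NoCycW5 library 49, 61, 63 or 65 (log2 fold changes -0.30, -0.30, -0.29 and -0.30, with BH P of 0.0549, 0.0648, 0.061 and 0.0561) or without the CycW5 library 45, 52 or 70 (-0.31, -0.31 and -0.30, with BH P of 0.052, 0.0518 and 0.0651). The sign did not change in any of these fits.

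Markers of other cells moved between the same groups. Of 6 vessel and muscle markers listed, the 2 endothelial ones with an identifier, VWF and CDH5, were lower in CycW5 cows at week 5 (log2 fold changes -0.81 and -0.44, BH P = 0.00154 and 0.0201). Their summed level was 218 to 589 CPM in NoCycW5 and 150 to 310 CPM in CycW5 libraries, and neither was at 0 in any library. The epithelial markers EPCAM and KRT8, 2 of 5 listed, were higher in CycW5 cows (log2 fold changes 0.71 and 0.78, BH P = 0.0229 and 2.52e-05), with sums of 216 to 415 CPM in NoCycW5 and 296 to 855 CPM in CycW5 libraries. The EPCAM call was lost without the CycW5 library 13, 66 or 70 (log2 fold changes 0.62, 0.60 and 0.55, with BH P of 0.0519, 0.0611 and 0.082). The fibroblast marker PDGFRA, 1 of 6 listed, differed by -0.07 (log2, BH P = 0.787), with 315 to 669 and 280 to 711 CPM. Their part in the differences of BCL2 and the receptors was not tested. No T cell, B cell or myeloid marker had an identifier in the sources used here.

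At week 9, after all cows had been brought to the same day of the cycle, none of the 3 genes passed. BCL2 differed between CycW5 and NoCycW5 cows by a log2 fold change of -0.14 (95% interval -0.60 to 0.32, BH P = 0.954). TNFRSF1A differed by -0.02 (interval -0.25 to 0.22, BH P = 0.990). TNFRSF25 differed by 0.02 (interval -0.35 to 0.40, BH P = 0.994). In this comparison 0% of the genes tested passed in edgeR, with 934 genes at an unadjusted P under 0.05, while DESeq2 called 15, limma-voom 0 and limma-voom with library quality weights 1.

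**Figure D2:**
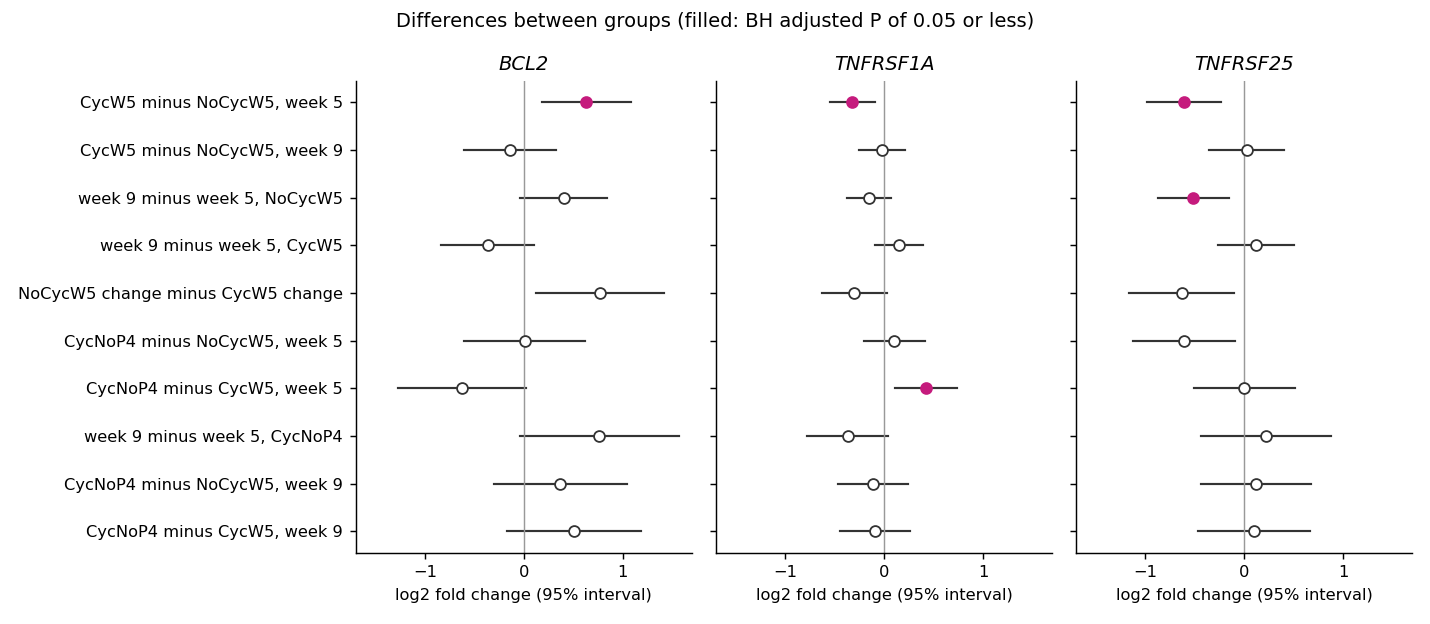
Log2 fold change (horizontal axis) of BCL2, TNFRSF1A and TNFRSF25 in each of the 10 comparisons, with its 95% interval as a line. Filled points passed a BH adjusted P of 0.05. At week 5 the CycW5 and NoCycW5 cows differed in all 3 genes, and at week 9 their differences were -0.14, -0.02 and 0.02.

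From week 5 to week 9 the NoCycW5 cows went from no cycle to a treated cycle sampled on a luteal-phase day, and TNFRSF25 fell in them. TNFRSF25 was 1.43-fold lower at week 9 (log2 fold change -0.52, SE 0.18, 95% interval -0.88 to -0.15, BH P = 0.0231), and it passed in 23 of 23 fits that each lacked 1 library (BH P 0.0109 to 0.0487). BCL2 had a log2 fold change of 0.40 (SE 0.22, interval -0.04 to 0.85, BH P = 0.146), and it passed when the NoCycW5 library 44 of week 5 was left out (0.55, BH P = 0.0417). TNFRSF1A had a log2 fold change of -0.15 (SE 0.11, interval -0.38 to 0.07, BH P = 0.289). Of the genes tested, 34.4% passed in this comparison. VWF was also lower at week 9 (log2 fold change -0.63, BH P = 0.00787), with a sum of VWF and CDH5 of 103 to 374 CPM, while CDH5 had a log2 fold change of -0.10 (BH P = 0.582). EPCAM and KRT8 were higher at week 9 (log2 fold changes 1.09 and 0.63, BH P = 0.000277 and 0.000207), with a sum of 322 to 825 CPM. The part of these cells in the fall of TNFRSF25 was not tested.

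The receptors for estrogen (ESR1) and oxytocin (OXTR), both of which P4 is known to hold down in the endometrium, were followed as signs of the hormonal state. In NoCycW5 cows both were lower at week 9, ESR1 by a log2 fold change of -0.67 (BH P = 0.0174) and OXTR by -1.69 (BH P = 0.0391). The OXTR call was lost without the NoCycW5 library 44 of week 5 or 74, 82, 90, 93, 95, 99 or 100 of week 9 (BH P up to 0.0667 in these fits). OXTR was 80.3, 111 and 222 CPM in the lowest, median and highest NoCycW5 library at week 5 and 2.84, 9.10 and 162 CPM at week 9, where 8 of the 11 libraries were below every week 5 library and the other 3 lay within the week 5 range. Between CycW5 and NoCycW5 cows at week 5 neither gene passed, with log2 fold changes of -0.29 for ESR1 (BH P = 0.353) and -1.44 for OXTR (BH P = 0.102). In CycW5 cows OXTR was 5.20, 43.1 and 151 CPM at week 5 and 2.64, 6.72 and 178 CPM at week 9. The libraries under one label therefore differed widely in OXTR, and the part of this spread in the values of BCL2 and the receptors was not tested. In CycNoP4 cows OXTR was 120 to 277 CPM at week 5 and 1.58 to 10.02 CPM at week 9.

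In CycW5 cows, which had a CL and P4 at week 5 and were sampled on a luteal-phase day at week 9, none of the 3 genes passed between week 5 and week 9, and 0.124% of the genes tested did. BCL2 had a log2 fold change of -0.37 (SE 0.23, 95% interval -0.84 to 0.11, BH P = 0.507). TNFRSF1A had 0.15 (SE 0.12, interval -0.09 to 0.39, BH P = 0.606) and TNFRSF25 had 0.12 (SE 0.19, interval -0.27 to 0.50, BH P = 0.836). The TNFRSF25 estimate turned to -0.02 without the CycW5 library 89 of week 9, the highest of its group.

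The changes of the NoCycW5 and CycW5 cows from week 5 to week 9 had opposite signs for each of the 3 genes. The study had named these genes for their week 5 difference, and both changes reuse the week 5 libraries. Opposite signs are therefore not independent evidence. The test of the difference between these changes is the same as that of the week 5 against the week 9 difference between the groups. The difference was 0.77 for BCL2 (log2, NoCycW5 change minus CycW5 change, SE 0.32, 95% interval 0.12 to 1.42, unadjusted P = 0.0204, BH P = 0.117). It was -0.30 for TNFRSF1A (SE 0.16, interval -0.63 to 0.03, unadjusted P = 0.0697, BH P = 0.228) and -0.63 for TNFRSF25 (SE 0.26, interval -1.16 to -0.11, unadjusted P = 0.0198, BH P = 0.115). None passed after adjustment, where 7.66% of the genes tested did. With library quality weights in limma-voom all 3 passed (BH P = 0.0216, 0.0385 and 0.0153), and in that fit 3115 genes passed in place of 1234.

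The CycNoP4 cows show the endometrium of cows that had cycled but were without P4 at the week 5 biopsy. Their mean BCL2 level at week 5 (2.65 CPM) was next to that of the NoCycW5 cows (2.63 CPM), with a log2 fold change of 0.01 (SE 0.30, 95% interval -0.60 to 0.62, BH P = 0.985). Against CycW5 cows it was -0.62 (SE 0.32, interval -1.27 to 0.02, BH P = 0.167). None of the 4 CycNoP4 libraries reached the CycW5 median. Both comparisons share the 4 CycNoP4 libraries, and the intervals are wide.

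For TNFRSF25 the mean CycNoP4 level at week 5 (13.1 CPM) was next to that of the CycW5 cows (13.1 CPM), with a log2 fold change of 0.00 (SE 0.25, 95% interval -0.51 to 0.51, BH P = 0.999). Against NoCycW5 cows it was -0.61 (SE 0.26, interval -1.13 to -0.09, unadjusted P = 0.0214, BH P = 0.0892). It passed without the CycNoP4 library 64 (log2 fold change -0.93, BH P = 0.0117) and without the NoCycW5 library 68 (-0.67, BH P = 0.0492). VWF in CycNoP4 cows had a log2 fold change of -0.46 against NoCycW5 cows (BH P = 0.213) and CDH5 had -0.07 (BH P = 0.817). The sum of VWF and CDH5 was 223 to 361 CPM. KRT8 was higher in CycNoP4 cows by 0.92 (BH P = 0.00074), and the sum of EPCAM and KRT8 was 435 to 743 CPM. The part of these cells in the TNFRSF25 values was not tested.

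TNFRSF1A in CycNoP4 cows at week 5 rested on library 51. With it, TNFRSF1A was 1.34-fold higher than in CycW5 cows (log2 fold change 0.43, SE 0.15, 95% interval 0.11 to 0.74, BH P = 0.0479). Without it, the log2 fold change was -0.01 (BH P = 0.985). The call was also lost without the CycW5 library 12, 45, 52, 54, 59, 66, 67 or 70, with log2 fold changes of 0.43, 0.42, 0.41, 0.42, 0.41, 0.43, 0.44 and 0.40 and BH P from 0.0534 to 0.0719. Against NoCycW5 cows, TNFRSF1A differed by 0.10 (SE 0.15, interval -0.20 to 0.41, BH P = 0.657), and by -0.33 without library 51 (BH P = 0.168). Of the genes tested, 16.4% passed between CycNoP4 and NoCycW5 cows and 17.9% between CycNoP4 and CycW5 cows at week 5. Library 51 also held the highest CycNoP4 levels at week 5 of FAS (64.9 against 17.6 to 26.2 CPM), EPCAM (540 CPM), CDH5 (71.5 CPM) and PDGFRA (727 against 269 to 437 CPM), but the lowest TNFRSF25 and VWF (169 CPM).

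**Figure D3:**
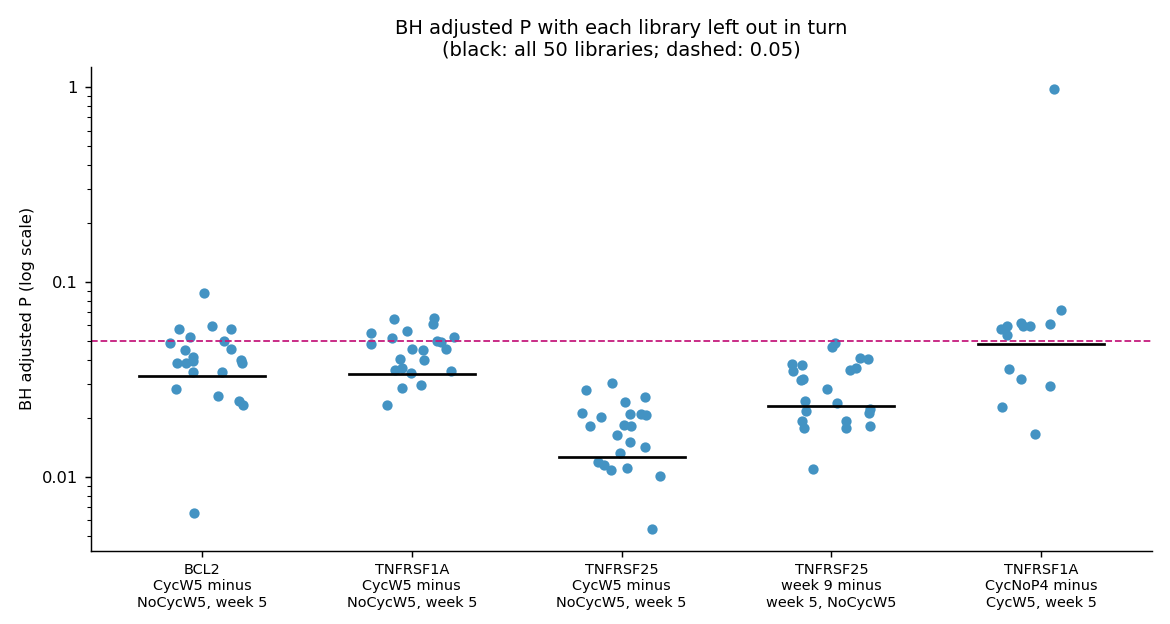
BH adjusted P (log axis) of the 5 calls made for the 3 genes when each library of the compared groups was left out in turn. Each point is a fit without 1 library, the black lines give the fit of all 50 libraries and the dashed line is at 0.05. The TNFRSF25 points stay below the line, and the TNFRSF1A point at 0.985 is the fit without the CycNoP4 library 51.

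By week 9 the CycNoP4 cows had received the same treatment as the others. BCL2 was 3.94 CPM or more in the 3 libraries of week 9 and 3.59 CPM or less in the 4 of week 5 (log2 fold change 0.76, SE 0.40, 95% interval -0.04 to 1.56, BH P = 0.161), in a comparison in which 19.6% of the genes tested passed. BCL2 itself did not pass, and the share of all genes without overlap between these libraries was not counted. TNFRSF1A had a log2 fold change of -0.37 (SE 0.20, interval -0.78 to 0.04, BH P = 0.191), or 0.06 without library 51 (BH P = 0.826). TNFRSF25 had 0.22 (SE 0.33, interval -0.44 to 0.87, BH P = 0.660).

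At week 9 none of the genes passed between CycNoP4 cows and either other group. Against NoCycW5 cows the log2 fold changes were 0.37 for BCL2 (95% interval -0.30 to 1.04), -0.11 for TNFRSF1A (-0.46 to 0.24) and 0.12 for TNFRSF25 (-0.44 to 0.68). Against CycW5 cows they were 0.51 for BCL2 (-0.17 to 1.18), -0.09 for TNFRSF1A (-0.45 to 0.26) and 0.10 for TNFRSF25 (-0.47 to 0.66). In each of these comparisons 0% of the genes tested passed in edgeR, with 782 and 1257 genes at an unadjusted P under 0.05, while DESeq2 called 13 and 19 and limma-voom called 0 and 0, with or without library quality weights.

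Across libraries the receptors rose and fell together. The correlation of TNFRSF1A with TNFRSF25 on the log2 scale was r = 0.73 in NoCycW5 cows at week 5 (n = 12), 0.70 at week 9 (n = 11), 0.60 in CycW5 cows at week 5 (n = 10) and 0.80 at week 9 (n = 10). BCL2 ran against TNFRSF1A in the same groups, with r = -0.72, -0.73, -0.48 and -0.47. BCL2 and TNFRSF25 had r = -0.29, -0.44, -0.39 and -0.17. The points of each correlation share a library, its scaling factor and its mixture of cells. The correlation with the total reads of a library over the 50 libraries was -0.15 for BCL2, 0.06 for TNFRSF1A and -0.08 for TNFRSF25.

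Counted library by library, the receptors lay together more often than BCL2 lay opposite either of them. With each library placed above its group median or not, the receptors were on the same side in 36 of the 50 libraries, BCL2 and TNFRSF1A on opposite sides in 30, and BCL2 and TNFRSF25 on opposite sides in 24. Unrelated genes would lie on opposite sides about as often as not, and the count of 24 is near that. Such a count is coarse and cannot show that opposition was absent. Whether any of these counts departs from that of unrelated genes was not tested. Some libraries at the ends of the groups had BCL2 and the receptors at opposite ends. In CycW5 cows at week 9, library 89 had the lowest BCL2 of its group (1.17 CPM) and the highest TNFRSF1A (224 CPM) and TNFRSF25 (26.4 CPM), whereas library 72 had the highest BCL2 (5.27 CPM) and the lowest of both receptors (111 and 7.995 CPM). In NoCycW5 cows at week 9, library 80 had the highest BCL2 and the lowest of both receptors, and library 76 had the lowest BCL2 and the highest TNFRSF1A. Library 63 had the lowest BCL2 and the highest TNFRSF1A of the NoCycW5 cows at week 5.

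Other libraries did not have this arrangement. In CycW5 cows at week 9, library 87 was low in all 3 genes (BCL2 1.22, TNFRSF1A 124 and TNFRSF25 8.87 CPM), and libraries 96 and 97 had high BCL2 (4.35 and 4.5 CPM) with TNFRSF25 of 17.2 and 17.6 CPM. Library 68 had the lowest of both receptors among the NoCycW5 cows at week 5 (137 and 10.7 CPM) with BCL2 near the middle of its group (2.53 CPM). The CycNoP4 library 51 had the highest TNFRSF1A and the lowest TNFRSF25 of its group.

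**Figure D4:**
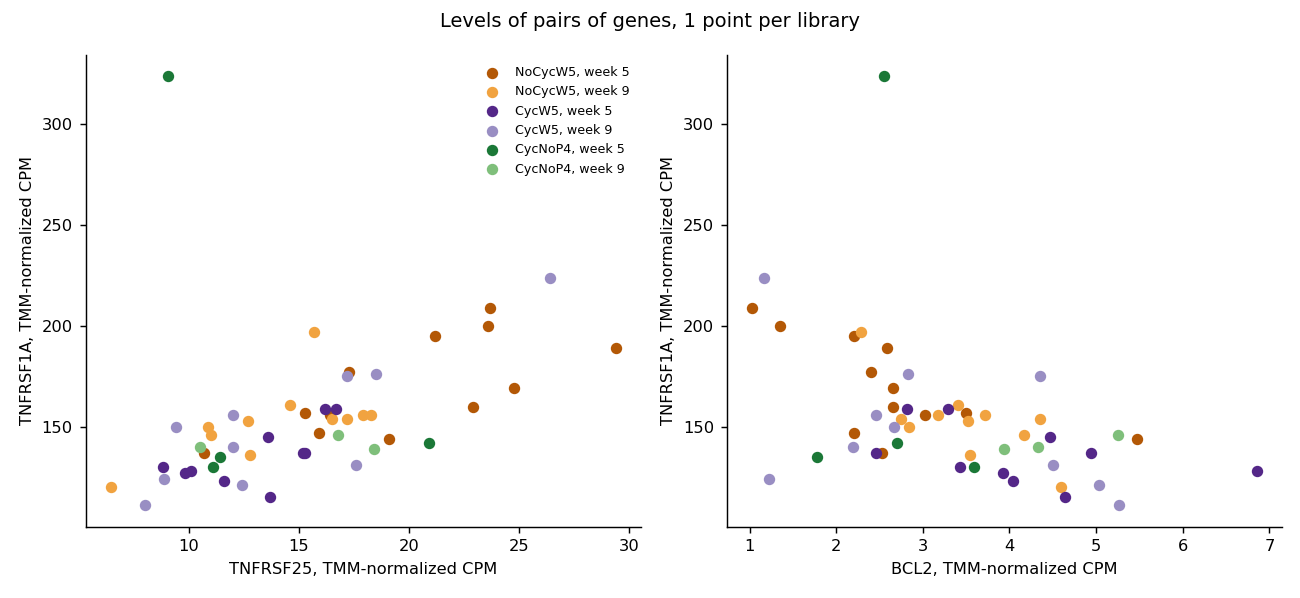
Level of TNFRSF1A (vertical axes, TMM-normalized CPM) against TNFRSF25 (left) and BCL2 (right), with 1 point per library, colored by group and week. TNFRSF1A rises with TNFRSF25 and falls as BCL2 rises, and the CycNoP4 library 51 at 324 CPM lies apart from the other 49 libraries.

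The receptors were also correlated with marker genes of several cell types from library to library. Over the 50 libraries, TNFRSF25 had r = 0.69 with VWF and 0.57 with CDH5, and 0.62 and 0.54 after the group means were subtracted. TNFRSF1A had r = 0.49 with VWF and 0.64 with CDH5, and 0.38 and 0.60 after subtraction. With the fibroblast marker PDGFRA, TNFRSF1A had r = 0.40 and TNFRSF25 had 0.33, and 0.57 and 0.48 after subtraction. With the epithelial marker KRT8 they had r = -0.37 and -0.52, and -0.25 and -0.26 after subtraction. With EPCAM, the other epithelial marker, they had r = -0.17 and -0.27, and -0.06 and -0.01 after subtraction. With ESR1, the estrogen receptor, they had r = -0.30 and -0.28, and -0.59 and -0.56 after subtraction. BCL2 had r = -0.56 with VWF, -0.30 with CDH5, 0.03 with PDGFRA, 0.24 with KRT8, 0.20 with EPCAM and 0.23 with ESR1. After subtraction these were -0.44, -0.25, -0.06, 0.05, 0.08 and 0.50. Only 7 of 40 listed marker and hormone receptor genes had an identifier, and none was a T cell gene, so the T cells in which TNFRSF25 is best known could not be followed.

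The genes whose rank order over the 50 libraries was most like that of each member were sought among 16119 other genes. For BCL2 the 5 highest Spearman rho were 0.73 to 0.77, with ZNF462 (0.77) and PFKFB2 (0.75) among them and no symbol for the other 3. After the group means were subtracted, ZNF462 again was among the 5 highest (0.67). For TNFRSF25 the 5 highest were 0.81 to 0.83, and NOSIP (0.81) was the one with a symbol, while CLTC had the most opposite order (-0.82). For TNFRSF1A the highest rho were 0.79 to 0.84, led by ENSBTAG00000030518, and none of the 5 had a symbol in the sources used here. The points share the same libraries and scaling, and the genes were the extremes of a long list.

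Other genes of apoptosis could be named only where the study's tables paired a symbol with an Ensembl identifier, and those tables hold genes the study had called in part of these libraries. Of 72 apoptosis genes listed, 8 had an identifier, the 3 members and BCL2L1, FAS, TNFRSF8, TNFRSF9 and CDIP1. No ligand, adaptor, pore-forming BCL2 relative, BH3-only gene or caspase was among them. Of the 5, 2 were higher and 1 was lower in CycW5 than in NoCycW5 cows at week 5, with a median log2 fold change of 0.47 beside -0.02 over all genes tested, of which 25.6% passed. From week 5 to week 9 in NoCycW5 cows, 3 were higher and 0 lower (median 0.85 beside -0.02), where 34.4% of all genes tested passed. These genes could be named because the study had called them, so nothing is read from the counts.

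BCL2L1, the relative of BCL2 that protects mitochondria in the same way, was, like BCL2, higher in CycW5 than in NoCycW5 cows at week 5. It was 63.2 ± 8.48 CPM (SD, n = 12) in NoCycW5 and 108 ± 20.9 CPM (SD, n = 10) in CycW5 cows at week 5, a log2 fold change of 0.78 (SE 0.14, BH P = 4.88e-05). In NoCycW5 cows it was higher at week 9 (114 ± 33.9 CPM, n = 11) by 0.85 (SE 0.14, BH P = 6.64e-06). Its CycNoP4 libraries at week 5 held 99.3, 75.0, 59.6 and 68.3 CPM (libraries 51, 56, 58 and 64), with a log2 fold change of -0.52 against CycW5 (BH P = 0.0616) and 0.26 against NoCycW5 cows (BH P = 0.335).

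CDIP1, a p53 target that induces cell death, was lower with TNFRSF25 in CycW5 cows at week 5. It was 53.4 ± 9.99 CPM (SD, n = 12) in NoCycW5 and 36.5 ± 8.77 CPM (SD, n = 10) in CycW5 cows at week 5, a log2 fold change of -0.55 (SE 0.13, BH P = 0.00136). In CycNoP4 cows at week 5 it was also lower than in NoCycW5 cows (log2 fold change -0.55, SE 0.18, BH P = 0.0307), a call that was lost without library 51 (-0.41, BH P = 0.222) or 56 (-0.42, BH P = 0.185). Against CycW5 cows it differed by 0.00 (SE 0.18, BH P = 0.990). From week 5 to week 9 in NoCycW5 cows it had a log2 fold change of -0.25 (BH P = 0.108).

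Of the other receptors of the family, TNFRSF8 passed in the direction opposite to TNFRSF1A and TNFRSF25 at week 5 and FAS and TNFRSF9 did not pass. FAS, a death receptor like them, had a log2 fold change of 0.47 between CycW5 and NoCycW5 cows at week 5 (SE 0.20, BH P = 0.0736), and it was higher at week 9 than at week 5 in NoCycW5 cows (27.9 ± 6.72 to 59.0 ± 11.4 CPM, log2 fold change 1.08, SE 0.19, BH P = 3.3e-05). TNFRSF8, a receptor without a death domain, was low (0.569 CPM in NoCycW5 and 1.82 CPM in CycW5 cows at week 5) and 3.18-fold higher in CycW5 cows (log2 fold change 1.67, SE 0.32, BH P = 0.000123). In CycNoP4 cows at week 5 it was 0.302 to 0.494 CPM, lower than in CycW5 cows by a log2 fold change of -2.27 (SE 0.50, BH P = 0.0023). TNFRSF9, another receptor without a death domain, did not pass in these comparisons, with a log2 fold change of -0.72 between CycW5 and NoCycW5 cows at week 5 (SE 0.60, BH P = 0.393).

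**Figure D5:**
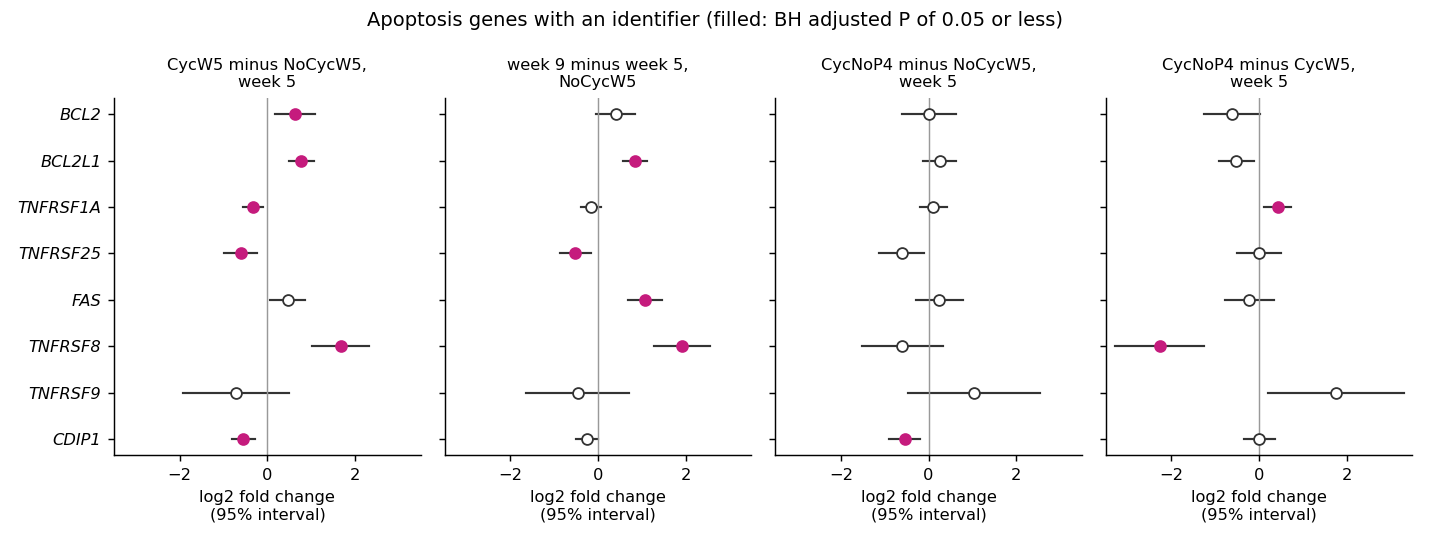
Log2 fold change (horizontal axes) with 95% interval of the 8 apoptosis genes that had an identifier, in 4 comparisons. Filled points passed a BH adjusted P of 0.05. BCL2, BCL2L1 and TNFRSF8 are higher and TNFRSF1A, TNFRSF25 and CDIP1 lower in CycW5 cows at week 5. The CycNoP4 cows differ from NoCycW5 cows in CDIP1, a call that was lost without the CycNoP4 library 51 or 56.

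A further 12 apoptosis genes were taken from the study's tables by their descriptions after the data were seen. At week 5, 5 of them were higher and 1 was lower in CycW5 than in NoCycW5 cows, in a comparison in which 25.6% of all genes tested passed. Nothing is read from this count either, since the tables they came from hold called genes. AIFM1, the mitochondrial apoptosis-inducing factor, was higher in CycW5 cows by 0.69 (log2, BH P = 1.95e-06). BAG3, a co-chaperone that binds BCL2, was higher by 0.75 (BH P = 0.000694). AIFM3, BFAR and AREL1 were the other 3 that were higher. Their calls were lost in 11, 12 and 13 of the 22 fits that each lacked 1 library. DAPK1, a death-associated kinase, was lower with a log2 fold change of -0.79 (BH P = 0.00119). AIFM1, BAG3 and DAPK1 had the same direction from week 5 to week 9 in NoCycW5 cows, by 0.72, 0.93 and -0.69 (BH P = 8.78e-07, 2.05e-05 and 0.00242). So did AIFM3, BFAR and AREL1, by 1.67, 0.97 and 0.22 (BH P = 0.000341, 0.000301 and 0.0332). The AREL1 call over time was lost in 7 of the 23 fits that each lacked 1 library.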

How the data were processed

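Endometrial mRNA was sequenced from stranded libraries, with single-end reads. The authors removed adapters and low-quality bases, used Hisat2 for alignment to cattle build UMD3.1 and FeatureCounts for counting on Ensembl genes, and the submitters' processing notes also name StringTie and edgeR. They deposited whole-number counts, not normalized, for 18830 genes in 50 libraries. Versions, and whether counting used strand, are not given in the sources used here.

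Here edgeR 4.0.16 was the main tool, with DESeq2 1.42.0 and limma 3.58.1 as alternatives (R 4.3.3). The 50 libraries were normalized by TMM (factors 0.854 to 1.10), filtered with filterByExpr and fitted as 6 status-by-week means with robust quasi-likelihood dispersions, where the study had used limma with cow and microbiota terms that the labels do not link to libraries. A gene was called where its BH adjusted P was at most 0.05. Standard errors and 95% intervals came from the fitted model, and log2 CPM used a prior count of 2. The tests were also run on simulated counts in which every library was drawn independently. Libraries that share a cow were not simulated, and no result given here rests on that run. Groups came from the labels.

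Symbols were paired with identifiers through the study's supplementary tables (2324 genes). The named genes were the 3 members, the listed apoptosis genes that passed, up to 4 per comparison, and TNFRSF family and BCL2 family genes with an identifier, with markers beside a result. TNF, TNFSF15, TNFRSF1B, BAX and MCL1 had none, so the ratio of BCL2 to BAX was not run. Members and lists were chosen with earlier results of these data known. Alternatives were DESeq2 size factors, the DESeq2 Wald test, limma-voom with and without library quality weights, other filters, fewer groups and leaving out each library in turn.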

Additional observations from a re-analysis of the deposited data

Results flagged for a closer look

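TNFRSF1A in the CycNoP4 library 51 of week 5 was 324 CPM, and the nearest of the other 3 libraries was at 142 CPM. The gap was 0.938 of the whole range of the group, beyond Dixon's 95% limit for 4 samples. It was the only outlier of 9 gene and group combinations checked, of which chance flags about 1 in 20. The check covered CycW5 cows at both weeks and CycNoP4 cows at week 5. NoCycW5 cows at both weeks and CycNoP4 cows at week 9 were left out for their group sizes, so outliers there were not looked for.

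For 6 of the genes named beside the members, NoCycW5 and CycW5 cows changed unequally over time (change in NoCycW5 minus change in CycW5, week 9 minus week 5, log2, edgeR quasi-likelihood test). The difference was 1.58 for TNFRSF8 (BH P = 0.0244), 0.81 for BCL2L1 (BH P = 0.00922), 0.62 for AIFM1 (BH P = 0.00592), 0.72 for BAG3 (BH P = 0.0479), 0.66 for the epithelial marker KRT8 (BH P = 0.0257) and -0.98 for the endothelial marker VWF (BH P = 0.0212). BAG3 lost this call in limma-voom (BH P = 0.0817), without a filter (BH P = 0.0536) and with only CycW5 and NoCycW5 libraries (BH P = 0.053), and in 31 of the 43 fits that each lacked 1 library, whereas the other 5 genes kept it in those 43 fits. For BCL2, TNFRSF1A and TNFRSF25 themselves this difference did not pass. Of all genes tested, 7.66% passed. The 6 genes were 2 of the 5 listed apoptosis genes, 2 of the 12 added, and KRT8 and VWF of 7 markers and hormone receptors. They could be named because the study had called them, so nothing is read from their number.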

How the results depend on the processing

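Of 213 values of the 3 genes under the settings chosen at the start, 191 kept their direction and their side of the threshold; 6 lost a call, 7 gained one and 9 changed sign. The TNFRSF25 calls at week 5 and over time in NoCycW5 cows, and the BCL2 call at week 5, stood in every setting run other than leaving out a library. TNFRSF1A at week 5 (CycW5 minus NoCycW5) lost its call with a filter of at least 1 CPM in 10 libraries (-0.30, BH P = 0.0526) and with only the libraries of the week (-0.30, BH P = 0.0714). The cause was not tested. TNFRSF1A in CycNoP4 minus CycW5 cows lost its call in limma-voom (0.32), with quality weights (0.15), without a filter (0.42) and with only the week 5 libraries (0.42).

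With library quality weights, calls were gained for BCL2 and TNFRSF1A over time in NoCycW5 cows (0.50 and -0.18), for the difference of changes in all 3 genes (BCL2 0.83, TNFRSF1A -0.32 and TNFRSF25 -0.75), for TNFRSF25 in CycNoP4 minus NoCycW5 cows at week 5 (-0.77) and for BCL2 over time in CycNoP4 cows (0.90). The cause was not tested. Under these settings, signs turned only where the value was not called. TNFRSF25 in CycNoP4 minus CycW5 cows at week 5 was 0.013 with DESeq2 size factors, 0.013 with DESeq2 and 0.0033 with the stricter filter. In CycW5 minus NoCycW5 cows at week 9, TNFRSF25 was -0.031 in limma-voom, and TNFRSF1A was 0.0088 with the stricter filter and 0.00085 with only the libraries of the week. In CycNoP4 minus NoCycW5 cows at week 5, TNFRSF1A was -7.83e-05 in limma-voom and -0.19 with quality weights, where BCL2 was -0.044.

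Leaving out each library in turn gave these ranges. In CycW5 minus NoCycW5 cows at week 5, BCL2 ran from 0.52 to 0.79 and TNFRSF1A from -0.35 to -0.29. At week 9, TNFRSF1A ran from -0.098 to 0.023 and TNFRSF25 from -0.12 to 0.092. Over time, BCL2 in NoCycW5 cows ran from 0.33 to 0.55 and TNFRSF25 in CycW5 cows from -0.025 to 0.19. In CycNoP4 minus NoCycW5 cows at week 5, BCL2 ran from -0.17 to 0.18, TNFRSF1A from -0.33 to 0.24 and TNFRSF25 from -0.93 to -0.47. In CycNoP4 minus CycW5 cows at week 5, TNFRSF1A ran from -0.0061 to 0.56 and TNFRSF25 from -0.32 to 0.14. Over time in CycNoP4 cows, TNFRSF1A ran from -0.50 to 0.063. TNFRSF25 of CycNoP4 cows at week 9 ran from -0.032 to 0.34 against NoCycW5 and from -0.068 to 0.31 against CycW5 cows.

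The number of genes called moved more than the members' values did. The DESeq2 Wald test called 15 (CycW5 minus NoCycW5, week 9), 251 (over time in CycW5), 1879 (difference of changes), 13 and 19 (CycNoP4 at week 9 minus NoCycW5 and minus CycW5). Limma-voom called 0 over time in CycW5 cows and 578 for the difference of changes, and with quality weights 1 at week 9, 8765 over time in NoCycW5, 3013 in CycW5 and 4952 in CycNoP4 cows, and 3115 for the difference of changes. Over time in CycW5 cows, 8 were called without a filter and 7 with only CycW5 and NoCycW5 libraries, and at week 9 that fit and the fit of the week each called 1. With 1 library left out, the counts ran from 777 to 2171 (difference of changes), 0 to 406 (over time in CycW5), 153 to 4775 and 1111 to 4342 (CycNoP4 at week 5 minus NoCycW5 and minus CycW5), 1295 to 4525 (over time in CycNoP4), and at week 9 from 0 to 5 (CycW5 minus NoCycW5), 0 to 18 and 0 to 1 (CycNoP4 minus NoCycW5 and minus CycW5). The lowest count against NoCycW5 cows, 153, was without library 51.

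No paired analysis was possible because the library numbers are not shared between groups and the labels do not name the cow. Many columns of the count table alternate between week 5 and week 9 libraries of the same group, but no source used here says that neighbours come from the same cow, and column order was not used to pair them. The ratio of BCL2 to BAX and its alternatives were not run, since BAX had no identifier. BCL2 rested on few reads, with a typical counting error of 8.84 to 11.6% in a library of each group. CycNoP4 values rest on 4 and 3 libraries.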
